A study of Rattus norvegicus with 6 samples.

Results

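The 9 genes described here are 7 genes of the UDP-glucuronosyltransferase family (Ugt2b1, Ugt2b7, Ugt2b17, Ugt2b37, Ugt2a3, Ugt1a6 and Ugt8), Ugdh and Akr1d1. Ugdh encodes the enzyme that makes the sugar donor of the enzymes of these 7 genes, Ugt8 excepted, and Akr1d1 encodes a steroid reductase. The 9 genes were measured with 17 of the 61453 probes analysed and are 9 of 15645 genes with a symbol. Every probe that is not a control and whose accession maps to one of the genes was taken, whatever its signal. The genes were chosen with the values of 1,2-dibromoethane and control arrays in view, so that their differences between the groups are a description and carry no test. Ugt2b17 is not a current symbol of the RefSeq gene table. It is an older name of both Ugt2b15 and Ugt2b1, and since Ugt2b1 is listed by itself, the probes of Ugt2b15 were taken for it and are called Ugt2b15 below.

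The arrays come from kidneys of 6 male Crl:CD(SD) Sprague-Dawley rats that were 5 weeks old when purchased. Treatment lasted 4 weeks: 3 rats received 1,2-dibromoethane, a brominated hydrocarbon once used to fumigate soil, at 75 mg/kg/day, and 3 control rats received its vehicle, corn oil. Total RNA from each rat's renal cortex, with Cy3 as the dye, went onto its own Agilent array. A level is the log2 of a probe's processed signal minus the 75th percentile of that array, so that 0 is the array's 75th percentile. Levels of different probes cannot be set against each other. A difference is the mean level in dibromoethane rats minus that in control rats, with the standard error (SE) of the limma fit.

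Between 59.2% and 67.8% of the probes were well above background in dibromoethane arrays, against 61.4% to 66.7% in control arrays. The arrays lay on 3 slides. Slide 1 held dibromoethane replicate 2 with control replicates 1 and 2, slide 2 held dibromoethane replicate 1 with control replicate 3, and slide 3 held dibromoethane replicate 3 alone. Slide 2 was scanned on another day than slides 1 and 3. Its arrays had the largest shares of probes well above background, 67.8% and 66.7%. The lowest signal well above background was -5.65 on dibromoethane replicate 1 and -5.47 to -4.65 on the other arrays. The summed linear signal of 15 proximal tubule markers, all of them tested, was 2500 to 2590 times the 75th percentile in dibromoethane arrays and 2670 to 2910 times in control arrays. The 3 arrays per group limit the precision of each difference. In bulk tissue, fewer cells of a type and less RNA per cell cannot be told apart.

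UDP-glucuronosyltransferases sit in the membrane of the endoplasmic reticulum and join glucuronic acid to phenols, steroids, bile acids, bilirubin and drugs, which makes them soluble enough to leave in urine or bile. The donor, UDP-glucuronic acid, is made in the cytosol from UDP-glucose by UDP-glucose dehydrogenase, the product of Ugdh. The Ugt1a enzymes come from 1 locus on which alternative first exons are spliced to shared downstream exons, whereas the Ugt2b enzymes come from separate, similar genes. Ugt8 differs from the rest in that it transfers galactose to ceramide. Akr1d1 is the steroid 5-beta-reductase, which reduces the double bond of bile acid precursors and of steroid hormones and is known mainly from liver. Both liver and kidney glucuronidate.

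In the GRCr8 gene order, Ugt2a3, Ugt2b15, Ugt2b37, Ugt2b7 and Ugt2b1 lie in this order in the Ugt2 cluster of chromosome 14, which also holds Ugt2a1, Ugt2b, Ugt2b35 and Ugt2b10. Ugdh lies on the same chromosome, Ugt1a6 on chromosome 9, Ugt8 on chromosome 2 and Akr1d1 on chromosome 4. RefSeq promoter windows of 300 bases around a gene's start were available for 8 of the 9 genes. Those of the 4 Ugt2b genes are shown because these genes are neighbours whose probes were all higher on average in dibromoethane arrays. Capitals mark a run of 25 bases that is the longest one shared by Ugt2b7, Ugt2b15 and Ugt2b37.

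Ugt2b1, GRCr8 chr14:21378632-21378931, + strand: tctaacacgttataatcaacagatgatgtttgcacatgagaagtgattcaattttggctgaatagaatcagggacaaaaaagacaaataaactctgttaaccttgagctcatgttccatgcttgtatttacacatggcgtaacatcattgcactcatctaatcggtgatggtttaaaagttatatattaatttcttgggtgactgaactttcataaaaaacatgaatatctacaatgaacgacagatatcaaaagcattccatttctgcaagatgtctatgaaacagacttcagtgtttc
Ugt2b7, GRCr8 chr14:21251285-21251584, + strand: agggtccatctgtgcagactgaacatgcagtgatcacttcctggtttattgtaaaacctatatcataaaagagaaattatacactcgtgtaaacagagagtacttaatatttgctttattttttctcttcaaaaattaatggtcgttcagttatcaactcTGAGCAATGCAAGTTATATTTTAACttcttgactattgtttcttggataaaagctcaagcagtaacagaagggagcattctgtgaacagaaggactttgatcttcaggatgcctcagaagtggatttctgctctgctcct
Ugt2b15, GRCr8 chr14:21122616-21122915, + strand: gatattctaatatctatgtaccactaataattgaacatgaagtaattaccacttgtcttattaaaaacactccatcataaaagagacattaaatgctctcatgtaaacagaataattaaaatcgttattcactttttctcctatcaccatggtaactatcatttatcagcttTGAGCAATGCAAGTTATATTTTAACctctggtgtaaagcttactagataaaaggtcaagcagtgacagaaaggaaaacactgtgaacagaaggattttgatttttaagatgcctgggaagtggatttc
Ugt2b37, GRCr8 chr14:21171886-21172185, + strand: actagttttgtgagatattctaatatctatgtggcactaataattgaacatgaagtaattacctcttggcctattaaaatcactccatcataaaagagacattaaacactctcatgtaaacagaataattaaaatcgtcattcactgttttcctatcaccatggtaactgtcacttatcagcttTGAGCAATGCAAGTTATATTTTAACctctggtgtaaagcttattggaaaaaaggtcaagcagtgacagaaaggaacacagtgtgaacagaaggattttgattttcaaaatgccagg

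The windows of Ugt2b15 and Ugt2b37 were 92.7% identical in a global alignment. That of Ugt2b7 was 70.2% identical to Ugt2b15 and 64.8% to Ugt2b37, and that of Ugt2b1 stood at 50.8% to 53.9% against the other three. The shared run occurs in 7 of 33469 promoter windows. Besides the 3 genes above, these are Ugt2b, Ugt2b35 and Ugt2b7l1 of the same cluster and LOC134478834. The window of Ugt2b1 does not hold it. The letters GTTAAT, one side of the palindrome bound by HNF1, a factor known to drive liver and kidney genes, occur in the windows of Ugt1a6 and Ugt2a3 and in 7.45% of all windows. The xenobiotic response element core TNGCGTG, bound by the aryl hydrocarbon receptor, occurs in 0 of the 8 windows and in 4.89% of all, and the antioxidant response element core TGACNNNGC occurs in that of Ugdh and in 12.1% of all. Each motif was searched on both strands by its exact letters, with N as any base, so that sites with other letters were not counted. A match is a description of the letters in these windows, and the lack of one does not show that a factor has no site there.

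Ugt2b1, the rat enzyme known for conjugating testosterone and morphine, and Akr1d1 were the genes that separated the groups by detection. Ugt2b1 had levels of -2.29, -4.12 and -4.39 in dibromoethane replicates 1 to 3, against -7.08, -7.00 and -7.60 in control replicates 1 to 3. Its probe A_44_P372277 was well above background on all 3 dibromoethane arrays and on 0 of 3 control arrays. For a bound, each control value was therefore raised to a floor, the lowest signal well above background on that array. This floor is not a strict limit of detection, since a spot above it may still not be well above background. Here and below, "at least" means against this floor. Against it Ugt2b1 was at least 3.02-fold higher in dibromoethane rats (measured means -3.60 ± 1.14 and -7.23 ± 0.32, SD, n = 3 each). Without dibromoethane replicate 1, the brightest array for this probe, it was at least 1.92-fold higher. Against the same floor, the difference was at least 0.93 within slide 1 and at least 3.18 within slide 2. The bounds hold for the processed signal only. With normexp background correction, which compresses low signals, the measured log2 difference of Ugt2b1 was 1.094, against 3.63 otherwise. That of Akr1d1 was 1.097, against 3.75. Either is a smaller fold than the bound of that gene's brightest probe over all 3 dibromoethane arrays.

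Akr1d1 was read by 3 probes, each with every dibromoethane value above every control value. The brightest, A_44_P552817, had levels of -2.42, -4.10 and -4.34 in dibromoethane replicates 1 to 3, against -7.25, -7.18 and -7.69 in control replicates 1 to 3. It was well above background on all 3 dibromoethane arrays and on 0 of 3 control arrays, and at least 2.97-fold higher in dibromoethane rats (measured means -3.62 ± 1.05 and -7.37 ± 0.27, SD, n = 3 each). Without dibromoethane replicate 1 it was at least 1.96-fold higher. A_64_P354893 had levels of -3.08, -4.29 and -4.84 in dibromoethane replicates 1 to 3, against -7.17, -6.99 and -7.48 in control replicates 1 to 3, at least 2.18-fold higher. The dimmest probe, A_44_P430706, was well above background on dibromoethane replicate 1 alone. Its levels were -3.80, -6.67 and -6.12 in dibromoethane replicates 1 to 3 and -7.09, -7.00 and -7.60 in control replicates 1 to 3. Replicate 1 was the highest of the dibromoethane arrays for each of the 3 probes and for Ugt2b1. Of 48892 brightest probes, 22 (0.045%) were, like those of Ugt2b1 and Akr1d1, well above background on all dibromoethane arrays and on no control array; since both genes were chosen on this contrast, nothing is read from that share.

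**Figure D1:**
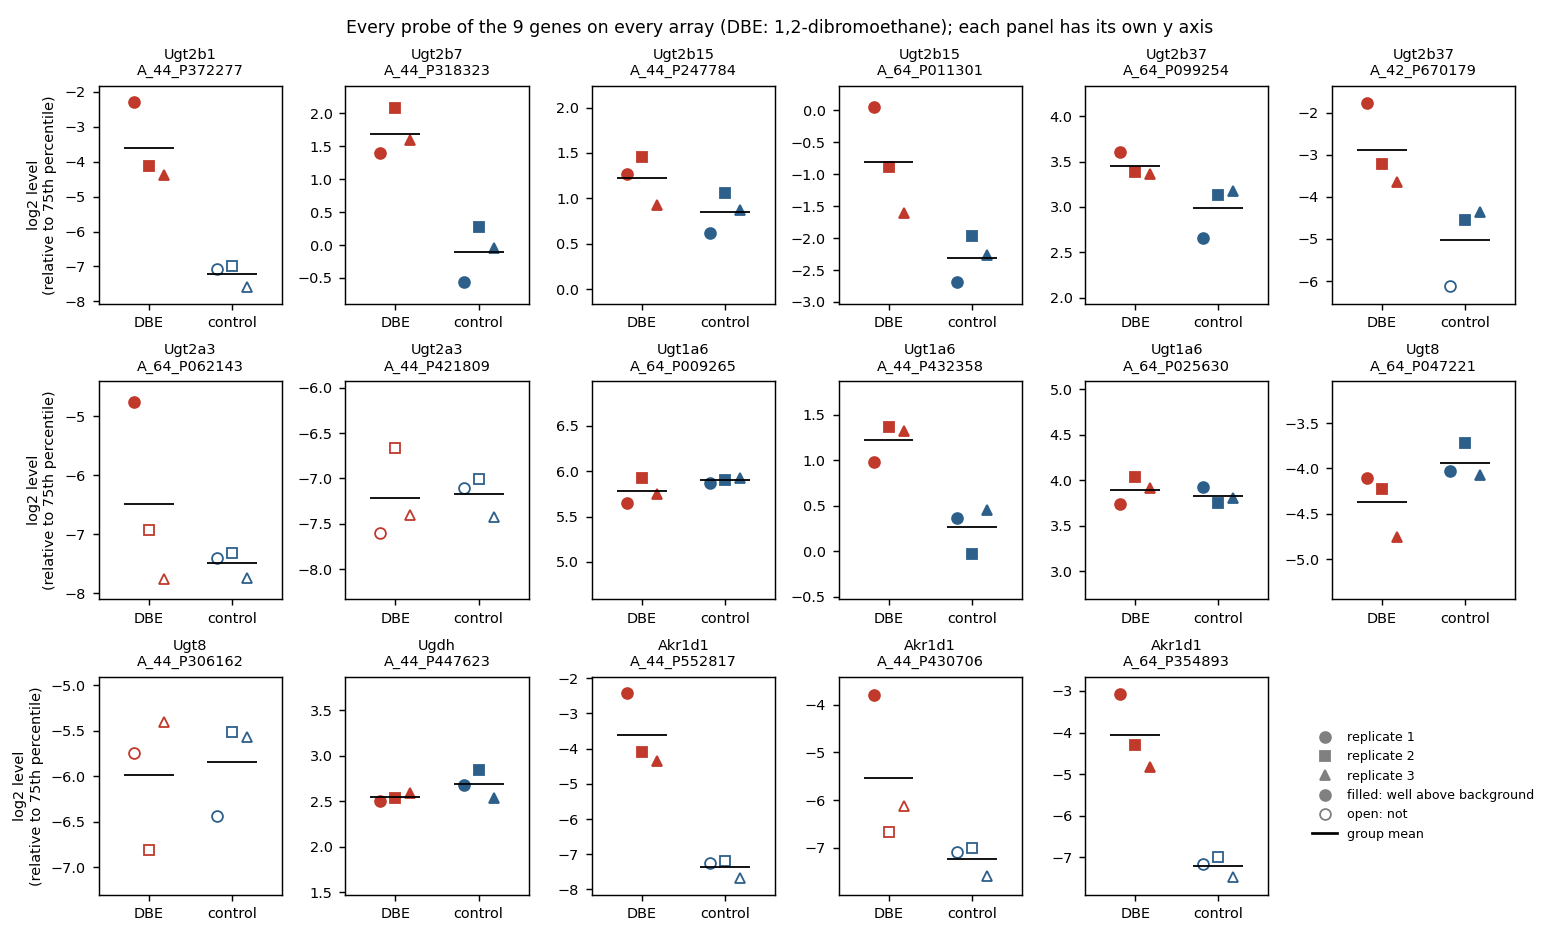
Log2 level of each of the 17 probes on each array, relative to the array's 75th percentile (y axis, a scale of its own in each panel), for 1,2-dibromoethane (DBE, red) and control (blue) rats, with replicates as symbols, group means as bars and open symbols where the spot was not well above background. Ugt2b1 and 2 probes of Akr1d1 are filled on all 3 dibromoethane arrays and open on all 3 control arrays, while the panels of Ugdh and of Ugt1a6 probe A_64_P009265 overlap.

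Ugt2b7, whose human namesake conjugates morphine, had the largest difference among the genes well above background on all 6 arrays by their brightest probe. Its levels were 1.40, 2.09 and 1.59 in dibromoethane replicates 1 to 3, against -0.56, 0.28 and -0.05 in control replicates 1 to 3. Every dibromoethane value lay above every control value. The mean was 1.69 ± 0.36 in dibromoethane rats and -0.11 ± 0.42 in control rats (SD, n = 3 each), a 3.49-fold difference (log2 difference 1.80, SE 0.27). The difference was 2.23 within slide 1, 1.45 within slide 2 and 1.95 without dibromoethane replicate 1. Unlike Ugt2b1 and Akr1d1, Ugt2b7 was lowest, within the dibromoethane group, on replicate 1.

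Ugt2b37 and Ugt2b15, neighbours in the cluster, were each read by a bright and a dim probe, and in both the dim probe had the larger difference. The human enzymes UGT2B15 and UGT2B17, whose names the second gene carries or carried, conjugate androgens. The bright probe of Ugt2b37, A_64_P099254, had levels of 3.61, 3.39 and 3.36 in dibromoethane replicates 1 to 3, against 2.66, 3.13 and 3.18 in control replicates 1 to 3. The groups did not overlap, and the difference was 0.46 (SE 0.16), or 1.38-fold. Its dim probe, A_42_P670179, had levels of -1.78, -3.23 and -3.64 in dibromoethane replicates 1 to 3, against -6.12, -4.55 and -4.37 in control replicates 1 to 3, of which control replicate 1 was not well above background. The difference of that probe was 2.13 (SE 0.64), and 1.58 without dibromoethane replicate 1.

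The bright probe of Ugt2b15, A_44_P247784, had levels of 1.27, 1.46 and 0.93 in dibromoethane replicates 1 to 3, against 0.62, 1.06 and 0.87 in control replicates 1 to 3. The groups overlapped, with control replicate 2 above dibromoethane replicate 3 (difference 0.37, SE 0.17). Its dim probe, A_64_P011301, had levels of 0.05, -0.88 and -1.61 in dibromoethane replicates 1 to 3, against -2.69, -1.96 and -2.27 in control replicates 1 to 3. Here the groups did not overlap, and the difference was 1.49 (SE 0.43), or 1.06 without dibromoethane replicate 1. The dim probes of both genes ran across the dibromoethane arrays in the order of Ugt2b1 and of the 2 brighter Akr1d1 probes, with replicate 1 highest and replicate 3 lowest; the dimmest Akr1d1 probe was lowest on replicate 2. The sequences of the probes were not used here, and whether a probe also binds transcripts of a related Ugt2b gene was not tested.

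Ugt2a3, an enzyme known in human for conjugating bile acids, was at or under the detection limit. Its probe A_64_P062143 was well above background on 1 of 6 arrays, dibromoethane replicate 1, at a level of -4.76, against -6.93 and -7.75 on the other two dibromoethane arrays and -7.40, -7.31 and -7.74 in control replicates 1 to 3. Its probe A_44_P421809 was well above background on 0 of 6 arrays. Ugt2a3 was not tested.

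The 3 probes of Ugt1a6, the enzyme of small planar phenols, did not move together. A_44_P432358, designed on NM_057105, had levels of 0.98, 1.37 and 1.32 in dibromoethane replicates 1 to 3, against 0.36, -0.03 and 0.45 in control replicates 1 to 3. The groups did not overlap for this probe, and the difference was 0.97 (SE 0.17), or 1.96-fold; it was 1.21 within slide 1 and 0.53 within slide 2. The brightest probe, A_64_P009265, and A_64_P025630 carry the accession of another transcript, NM_001039691. A_64_P009265 had levels of 5.65, 5.93 and 5.75 in dibromoethane replicates 1 to 3, against 5.87, 5.90 and 5.93 in control replicates 1 to 3. Its difference was -0.12 (SE 0.09), and that of A_64_P025630 was 0.07 (SE 0.10), both with overlapping groups. The files used here do not say which exon a probe lies in, and a probe in a shared exon would read every Ugt1a transcript.

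Ugt8 and Ugdh had negative differences. The probe A_64_P047221 of Ugt8 had levels of -4.11, -4.23 and -4.76 in dibromoethane replicates 1 to 3, against -4.03, -3.72 and -4.07 in control replicates 1 to 3. The groups did not overlap, although dibromoethane replicate 1 and control replicate 3 nearly met, and the difference was -0.42 (SE 0.20), with -0.04 within slide 2. The other probe of Ugt8 was well above background on 0 of 6 arrays. Ugdh had levels of 2.50, 2.54 and 2.59 in dibromoethane replicates 1 to 3, against 2.68, 2.84 and 2.54 in control replicates 1 to 3. The groups overlapped, and the difference was -0.14 (SE 0.10).

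**Figure D2:**
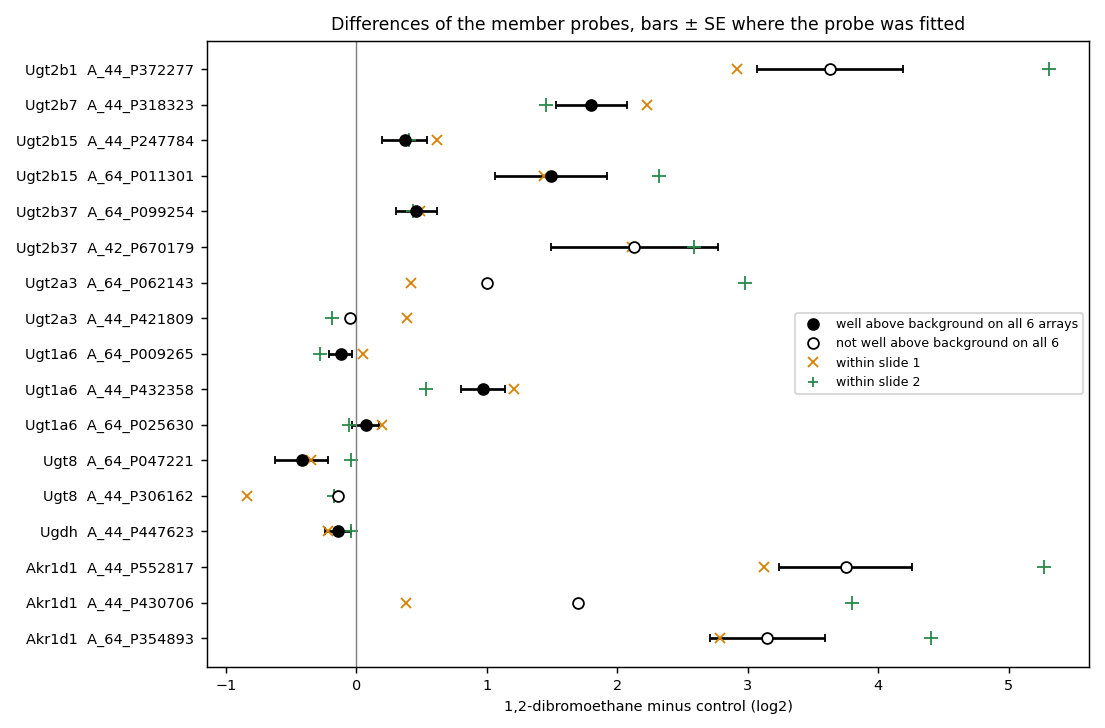
Difference of each of the 17 probes, 1,2-dibromoethane minus control on the log2 scale (x axis), with bars of 1 SE where the probe was fitted, open points where it was not well above background on all 6 arrays, and the differences within slide 1 (crosses) and slide 2 (plus signs). Ugt2b7, measured on all 6 arrays, lies at 1.80 and Ugdh at -0.14; the points and slide values of Ugt2b1 and Akr1d1 were measured against control spots below background and have no rank.

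Of the 9 genes, 8 had a brightest probe that was tested. Ugt2b1 and Akr1d1 passed the filter on dim probes through the dibromoethane arrays alone. None of the 8 passed a Benjamini-Hochberg adjusted p of 0.05 in limma, where 9 of 28961 features (0.0311%) did. The groups did not overlap for 5 of the 8 genes. In 4 of these the dibromoethane arrays were higher, a pattern held by 7.39% of all features tested, and in 1, Ugt8, they were lower, as in 12.1% of all. Over single probes, 8 of the 13 tested did not overlap and were higher (7.6% of all probes tested). Among these, the probe of Ugt2b1, the probes A_64_P354893 and A_44_P552817 of Akr1d1 and A_42_P670179 of Ugt2b37 passed the filter through the dibromoethane arrays alone. The median difference was 0.41 over the 8 genes and -0.02 over all features, of which the middle 90% lay between -0.37 and 0.38. The genes were chosen on this contrast, so nothing is read from these counts.

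Liver markers also had mostly positive differences, though none passed. Of 28 liver markers, 25 were tested and 23 had a positive difference, with a median of 0.62. Their summed linear signal was 226 to 288 times the 75th percentile in dibromoethane arrays and 197 to 203 times in control arrays. The brightest markers weigh most in this sum. Among them, Serpinc1 had levels of 6.5 to 6.8 and Hpd of 5.78 to 6.34 over the 6 arrays. Some dimmer markers spread more among the controls, which the sum does not show. Ttr had levels of -2.42, 1.02 and 0.34 in control replicates 1 to 3. Dibromoethane replicate 1 was the highest array for 19 of the 25 markers, as it was for Ugt2b1 and Akr1d1. Albumin (Alb) had levels of 3.81, 2.10 and 1.93 in dibromoethane replicates 1 to 3, against -1.17 to 1.94 in control arrays, the lowest in control replicate 1. Among the 25 tested, the groups did not overlap for 4 that were higher (Apoa2, Ttr, Apoa1 and Fetub) and for 0 that were lower. Over all features tested these shares were 7.39% and 12.1%. Apoa2 and, among the markers whose groups overlapped, Serpina1 entered the test through the dibromoethane arrays alone. Of the liver markers that were not tested, Cps1, the first enzyme of the urea cycle, and Tat, which degrades tyrosine, were well above background on 0 of 6 arrays. Tdo2, which degrades tryptophan, was well above background on dibromoethane replicate 1 alone, at -3.74, against -7.15 to -5.72 in control arrays.

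The arrays were also set side by side in 9 pairs of 1 dibromoethane and 1 control array. The median difference of the 25 markers ran from -0.02, between dibromoethane replicate 3 and control replicate 2, to 2.02, between dibromoethane replicate 1 and control replicate 1. In the first of these pairs 11 of the 25 markers were higher in dibromoethane replicate 3, and single markers lay on both sides of 0; against control replicate 1 the same array was higher in 20 markers, with a median of 0.64. Since both genes were below background on each control array, their differences in a pair are lower limits against that array's lowest signal well above background. In the pair with the marker median of -0.02, Ugt2b1 was higher by at least 0.61 and Akr1d1 by at least 0.65. In the pair with the median of 2.02, Ugt2b1 was higher by at least 2.82 and Akr1d1 by at least 2.69. Between dibromoethane replicate 2 and control replicate 1 the limits were 0.99 for Ugt2b1 and 1.01 for Akr1d1, and the measured differences 2.96 and 3.15. The marker median of this pair, from measured values, was 1.72. A limit under that median does not show a smaller difference. Against the mean of the controls, the median deviation of the markers was 1.23, 0.69 and 0.33 in dibromoethane replicates 1 to 3. It was -0.60, 0.35 and 0.14 in control replicates 1 to 3. No fit took the liver markers into account.

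**Figure D3:**
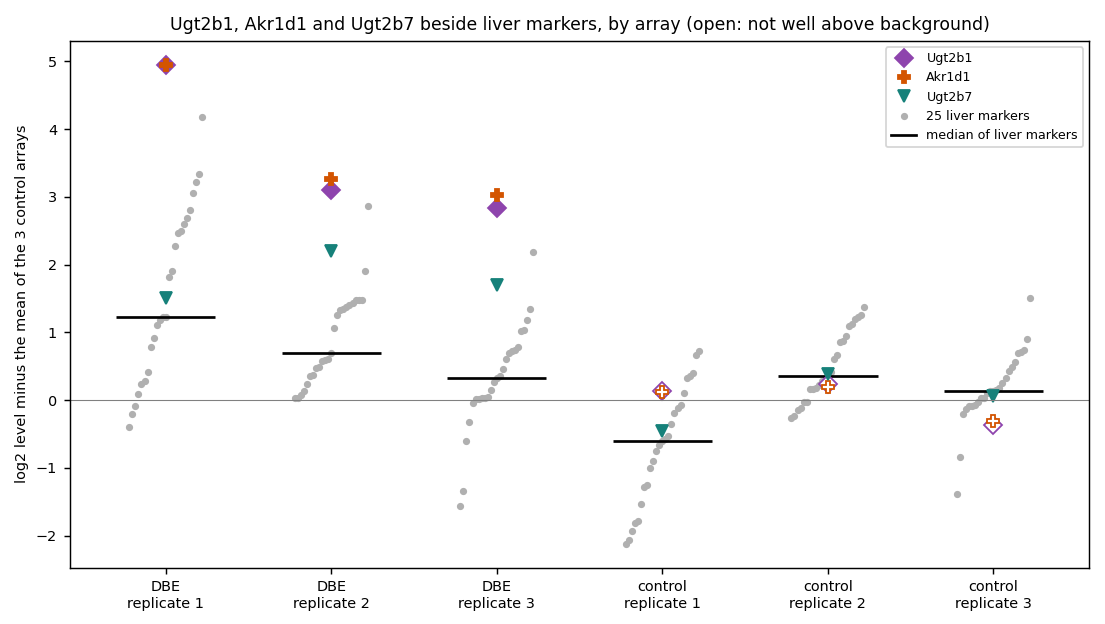
Level on each array minus the mean of the 3 control arrays (y axis, log2), for 25 liver markers (grey points, with their median as a bar) and for Ugt2b1, Akr1d1 and Ugt2b7, open where not well above background, with dibromoethane (DBE) arrays on the left. The marker median is highest on dibromoethane replicate 1, at 1.23, and is 0.33 on dibromoethane replicate 3 and 0.35 on control replicate 2, while Ugt2b1 and Akr1d1 are filled on the dibromoethane arrays and open on the control arrays, so that their heights are measured values and not limits.

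Markers of other cell types that the tissue could hold had medians nearer to 0. The median difference was -0.09 for proximal tubule, -0.22 for the proximal straight tubule, -0.40 for thick ascending limb, 0.08 for distal tubule and collecting duct, -0.09 for podocyte and 0.04 for endothelial markers. It was -0.26 for macrophage, 0.00 for lymphocyte, -0.43 for blood cell and -0.31 for perirenal fat markers. Of 6 adrenal cortex markers 1 was tested, at 0.16, and 3 were well above background on 0 of 6 arrays. All dibromoethane values lay under all control values for 6 of 15 proximal tubule, 3 of 4 blood cell and 2 of 4 macrophage markers. The same held for 2 of 5 thick ascending limb and 1 of 3 perirenal fat markers, and for 12.1% of all features tested. All lay above for 2 of 8 distal tubule and collecting duct, 1 of 5 endothelial and 1 of 3 lymphocyte markers, against 7.39% of all features. No marker of any of these lists, or of liver, passed in limma. Their part in the differences of the 9 genes was not tested.

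Other genes of the UDP-glucuronosyltransferase family were measured in part. Of 12 further family genes 7 had a probe and 5 were tested. Ugt2b, which lies in the same cluster, shared the pattern of Ugt2b1: its brightest probe had levels of -2.43, -3.04 and -4.70 in dibromoethane replicates 1 to 3, against -7.24, -6.17 and -6.20 in control replicates 1 to 3. It was well above background on all 3 dibromoethane arrays and on 0 of 3 control arrays, at least 3.49-fold higher, but did not pass (limma adjusted p = 0.250). Like Ugt2b1 and Akr1d1, it entered the test through the dibromoethane arrays alone. Ugt1a1, the bilirubin enzyme, had levels of 0.55, 0.88 and 0.74 in dibromoethane replicates 1 to 3, against 1.53, 1.41 and 1.39 in control replicates 1 to 3. The groups did not overlap, yet the difference of -0.72 (SE 0.11) did not pass either (limma adjusted p = 0.221).

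The remaining genes of the family lay between these. Ugt1a9 had a difference of 0.96 (SE 0.23, limma adjusted p = 0.319), Ugt2b35 one of 0.37 (SE 0.17, limma adjusted p = 0.485) and Ugt1a2 one of 0.05 (SE 0.10, limma adjusted p = 0.866). Within the Ugt1a locus the differences thus ran from -0.72 for Ugt1a1 to 0.97 for 1 probe of Ugt1a6. Ugt2b10 was well above background on dibromoethane replicate 1 alone, and Ugt2a1, known from the olfactory lining, on 0 of 6 arrays.

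No gene for the supply or use of glucuronic acid passed in limma. Of 12 genes of UDP-sugar supply 11 were tested and 0 passed, with a median difference of 0.02. The smallest p belonged to Galk1, galactokinase (-0.35, SE 0.11, limma adjusted p = 0.378), and Ugp2, which makes UDP-glucose, the substrate of Ugdh (0.21, SE 0.08, limma adjusted p = 0.433). Of 8 genes of glucuronide hydrolysis and glucuronate use 0 passed, with a median of 0.00. Values were 0.29 (SE 0.12, limma adjusted p = 0.450) for Cryl1, of the glucuronate-xylulose pathway, and -0.15 (SE 0.06, limma adjusted p = 0.463) for Miox, the kidney enzyme that opens inositol to glucuronate. Of 8 genes of galactosylceramide and sulphatide metabolism, the pathway of Ugt8, 0 passed, with a median of 0.05. Psap, the precursor of the saposins that help to degrade sphingolipids, had a difference of -0.24 (SE 0.07, limma adjusted p = 0.355).

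Regulators and steroid enzymes gave no call either. Of 14 genes of factors that control these enzymes, 13 were tested and 0 passed, with a median of -0.07. The values were -0.41 (SE 0.12, limma adjusted p = 0.359) for Nr1h4, the bile acid receptor, and -0.68 (SE 0.27, limma adjusted p = 0.441) for Ppara, the receptor of fatty acids. Among 26 steroid and bile acid enzymes around Akr1d1, 20 were tested and 0 passed, with a median of -0.03. Hsd3b7, which acts upstream of Akr1d1 in bile acid synthesis, had levels of -1.99, -2.21 and -2.24 in dibromoethane replicates 1 to 3, against -2.70, -2.78 and -2.79 in control replicates 1 to 3. The groups did not overlap, and its difference of 0.61 (SE 0.09) did not pass (limma adjusted p = 0.221), nor did that of Cyp27a1, the sterol 27-hydroxylase (0.29, SE 0.09, limma adjusted p = 0.365). Cyp7a1 and Cyp8b1, known as liver enzymes of the same route, were well above background on 0 of 6 arrays. Over the 6 lists, 12 of the 65 genes tested had an unadjusted p under 0.05 in limma, a larger share than the 11.1% of all features. The lists were chosen with earlier results of these data known, so nothing is read from this count.

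**Figure D4:**
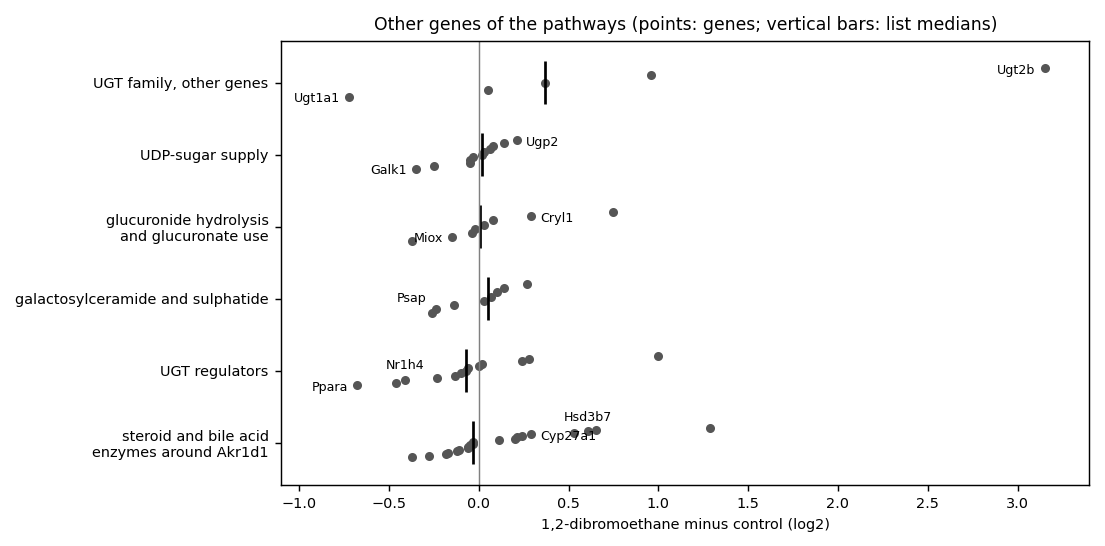
Difference of each tested gene, 1,2-dibromoethane minus control on the log2 scale (x axis), for 6 lists of related genes (rows), with list medians as vertical bars and names for the genes given in the text by the smallest p of each list. Medians lie between -0.07 and 0.37, and Ugt2b is plotted at its measured 3.15, with control spots below background.

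The genes most like each of the 6 genes measured on all 6 arrays were taken as the 3 with the highest Pearson r over the 6 arrays among 10995 named genes. Such high values arise by searching many genes over few arrays and are a description. Ugt2b15 was most like Ugt2b35, its neighbour beyond Ugt2b37 (r = 0.9957, both with a difference of 0.37), followed by Hepacam2 and Camk2b. Ugt2b37 was most like Fam227b, Ttr and Mug1, of which Ttr, the transthyretin gene, is among the liver markers and had a difference of 3.08. Ugt2b7 was most like Fut4, Pir and Tph1, with differences of 0.25, 0.64 and 1.06. Ugt1a6 was most like Shmt2, Hipk4 and Cdc27, Ugt8 like Lrrc8a, Kdm3a and Plp2, and Ugdh like Mtmr4, Txnl1 and Nkap, at r from 0.9808 to 0.9966 and differences between -0.20 and -0.05.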

How the data were processed

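Each deposited scanner table gives a processed intensity for every spot, made with Agilent Feature Extraction 10.7.1.1 and background-subtracted within the array, per the file headers. A further deposited table of processed intensity values is linear and not centred by gene. On the log2 scale it followed the scanner values relative to the 75th percentile at r = 1 on each array, and its column medians were 0.101 to 0.112. Feature Extraction 10.7 is also named in the submitters' processing notes. Control spots (1439) and 84 ERCC spike-in spots were left out of 62976, and outlier spots, 1 to 11 per array, were set to missing. None was saturated.

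Accessions were matched to a RefSeq table of GRCr8, used for names, gene order and promoter windows; the array grid names rn4. A symbol was found for 28206 probes (45.9%). Each gene was represented by its brightest probe, and a feature was tested if well above background on all arrays of a group. Groups were compared with limma 3.58.1 in R 4.3.3 (two-sided, Benjamini-Hochberg, threshold 0.05), tested on simulated data. SEs of other probes come from a fit of each probe by itself. A bound sets the bright group's mean against, per array, the higher of the dim probe's value and the lowest signal well above background. Spots above that signal may still not be well above background, so that a bound is not a guaranteed minimum.

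The genes and lists (182 entries, 180 matched to a symbol, 177 kept after merging older names and leaving out the 9 genes) were chosen with earlier results of these data known. Named genes are the 9, the 2 smallest p of each pathway list (1 of them is not reported here) and the 3 most alike genes; other genes were named after their values were seen. Normexp used median spot and background signals.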

Additional observations from a re-analysis of the deposited data

How the results depend on the processing

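The count of 9 features that passed in limma (7 higher, 2 lower) was 5 with median centring (5 and 0), 5 with normexp background correction, 2 without a filter on dim probes, 2 with scan day as a fixed block and 17 with trend and robust. It was 0 with slide as a fixed block, 0 on only slides with both groups and 0 with the replicate block, fits with 2 residual degrees of freedom in which 3514, 3529 and 3466 features had an unadjusted p under 0.05. Leaving out 1 array gave 1 to 8. It was 1 without dibromoethane replicate 1, dibromoethane replicate 2 or control replicate 2 and 4 without control replicate 1. These fits have fewer residual degrees of freedom; otherwise the cause was not tested. In every alternative 0 genes of the 6 pathway lists passed in limma, with 9 to 20 at an unadjusted p under 0.05. The liver marker median of 0.62 lay between 0.46, without dibromoethane replicate 1, and 1.07, with each probe by itself.

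Of the 8 genes, 5 had groups that did not overlap. This was 3 with the filter on all 6 arrays, which leaves out Ugt2b1 and Akr1d1, and 9 probes with each probe by itself; leaving out 1 array gave 5 to 6. With normexp (offset 50, which compresses low signals) the measured difference was 1.094 for Ugt2b1 and 1.097 for Akr1d1, against 3.63 and 3.75. Averaging all probes of a gene gave 2.87 for Akr1d1, 0.93 for Ugt2b15, 1.30 for Ugt2b37 and 0.30 for Ugt1a6, whose sign then turned. The range over the alternatives was 1.58 to 2.00 for Ugt2b7, -0.55 to -0.22 for Ugt8 and -0.21 to -0.06 for Ugdh.

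Replicates carry the numbers 1 to 3 in either group. The deviations of same-numbered arrays from their group means correlated at r = -0.19, 0.26 and 0.16 across features. Differently numbered arrays gave r from -0.32 to 0.20. With 3 arrays per group, spread over slides, these values cannot decide whether the numbers pair the rats. The replicate block leaves each difference of the 9 genes as it was, which follows from each number holding 1 array of each group.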
